A study of Sus scrofa with 4 samples.

Results

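The vessel endothelial cells described here were 365 cells of primary pig pancreas named for SELP and IL33, out of 32580 cell barcodes in the series and 1335 endothelial cells in the 2 primary pancreas libraries. They were chosen by a rule on counted molecules. Barcodes needed at least 2000 UMIs (unique molecular identifiers, each marking 1 captured molecule), at most 9000 features, under 0.3% of UMIs from SLC4A4 and under 5% from INS. A barcode was endothelial with at least 8 UMIs and at least 3 detected genes of the panel PECAM1, CDH5, KDR, FLT1, ESAM and EMCN. It was a vessel cell where SELP, IL33, SLCO2A1 and TLL1 together had more UMIs than DYSF, BTNL9, CLIC5 and LRRC3B. The 943 endothelial cells with the opposite order are called capillary cells below, and 24 and 3 cells with equal sums in the 2 libraries were in neither group.

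The series holds 2 libraries of porcine pancreatic ductal organoids (PPDO, epithelial cultures grown from pancreatic ducts) and 2 of primary porcine pancreas. According to the study's methods, the pancreata came from a wild type and an INS-eGFP pig, both late postnatal and handled on different days, and the replicate numbers of the titles are taken here to be the sample numbers of the methods. Live cells were sorted from manually isolated ducts of the first pancreas. For the second, cells binding the lectin DBA, INS-eGFP cells and unselected cells were pooled. Animal, genotype, day and selection cannot be told apart between these libraries, and primary pancreas 1 and 2 (1 animal each) were compared side by side without a test.

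Blood vessels are lined by endothelial cells that differ along the vascular tree. Arteries carry gap junction protein GJA5 and NOTCH signalling, capillaries exchange fluid, lipids and hormones, and veins and venules admit leukocytes and express the transcription factor NR2F2. P-selectin (SELP) is stored in Weibel-Palade bodies and brought to the cell surface, where leukocytes tether to it. IL33 is a cytokine held in the nucleus and released when cells are damaged, SLCO2A1 is a prostaglandin transporter, and TLL1 is a tolloid-like protease that processes chordin and procollagen.

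Primary pancreas 1 held 299 vessel and 747 capillary cells, and primary pancreas 2 held 66 and 196. Vessel cells were 27.9% of endothelial cells in primary pancreas 1 (exact Clopper-Pearson 95% interval 25.3 to 30.7) and 24.9% in primary pancreas 2 (19.8 to 30.6), a mean of 26.4 ± 2.15% (SD, n = 2). In PPDO, which are epithelial cultures, 1 of 8994 and 0 of 7455 eligible barcodes passed the endothelial panel (the second allows a share of up to 0.0402%) and 0 were vessel cells. The intervals cover counting error only. Between the 2 primary libraries 10 barcode sequences were shared. The median vessel cell carried 10950 and 11664.5 UMIs against 9008 and 9613.5 in capillary cells, and its mitochondrial share was 0.264% and 0.278% against 0.212% and 0.175%. Scrublet scores over the study's limits marked 4 and 1 vessel cells as likely doublets. The summed counts behind each level were 4070405 and 850452 UMIs for vessel cells and 8343940 and 2106633 for capillary cells, so levels of primary pancreas 2 are less precise.

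**Figure D1:**
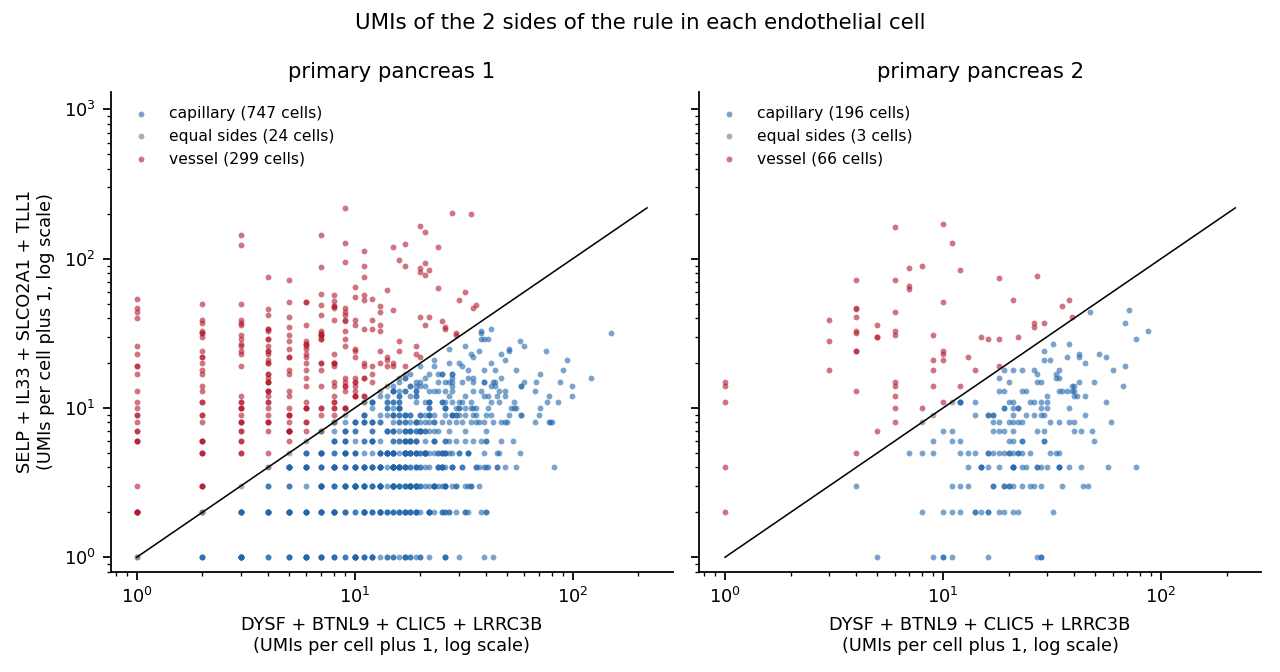
Each point is an endothelial cell of primary pancreas 1 (left) or 2 (right), with the UMIs of the capillary side of the rule on the x axis and those of the vessel side on the y axis (both plus 1, log scale). Cells above the line are vessel cells (299 and 66), cells below it capillary cells (747 and 196), with no empty band between them.

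The genes that chose the cells are given as a description, with no test. Levels are in CPM, UMIs of the gene per 1000000 UMIs of the summed cells. SELP was at 185 and 188 CPM in vessel cells of primary pancreas 1 and 2, against 13.5 and 9.97 CPM in capillary cells, the lowest level of the 4 vessel-side genes. IL33 was at 565 and 647 CPM against 48.5 and 45.1. TLL1 was at 528 and 621 CPM against 3.12 and 0.949, the widest gap of the vessel side. SLCO2A1 separated the groups least, with 897 and 1440 CPM against 432 and 679, so it was abundant on both sides of the rule. On the capillary side, BTNL9 was at 9.83 and 45.9 CPM in vessel cells against 238 and 609 in capillary cells. DYSF, a membrane repair protein, was still at 209 and 258 CPM in vessel cells, against 668 and 586.

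The panel itself was not even between the groups. PECAM1, the adhesion molecule CD31, was at 2212 and 2595 CPM in vessel cells and 2195 and 2229 CPM in capillary cells. KDR, the main receptor of VEGFA, was at 99.99 and 125 CPM against 371 and 422. FLT1, a second VEGF receptor, was at 679 and 900 CPM against 1505 and 1703. The vessel cells thus entered with less KDR and FLT1, and with the panel's other genes at 238 and 292 CPM (CDH5), 153 and 255 (ESAM) and 500 and 543 (EMCN).

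The 4 vessel genes of the rule were not all detected in each vessel cell, and 0 UMIs at this depth do not show that a gene is absent. SELP and IL33 were both detected in 58.2% and 62.1% of vessel cells, IL33 without SELP in 29.1% and 25.8%, SELP without IL33 in 3.34% and 3.03%, and neither in 9.36% and 9.09%. All 4 vessel genes were detected in 35.5% and 39.4% of cells. With every cell thinned to 2000 UMIs, SELP had a UMI in 29.1% and 37.9% of vessel cells, 2.81% and 3.06% of capillary cells and 0.134% and 0.117% of duct-gated barcodes (over 0.3% SLC4A4). The source of SELP UMIs in duct-gated barcodes, such as free RNA or doublets, was not tested. Without thinning, SELP had a UMI in 61.5% and 65.2% of vessel cells and in 0.671% and 0.350% of duct-gated barcodes, whose median depth was 16228.5 and 19578 UMIs. Thinned TLL1, also a gene of the rule, was found in 33.4% and 33.3% of vessel cells.

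At the border, 17 and 4 vessel cells were ahead by 1 UMI, with medians of 4 and 7 UMIs on the vessel side against 3 and 6 on the capillary side. Just outside were 24 and 3 cells with equal sides, and 31 and 5 capillary cells that were behind by 1 UMI. Requiring a lead of at least 4 UMIs left a mean vessel share of 22.2%.

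**Figure D2:**
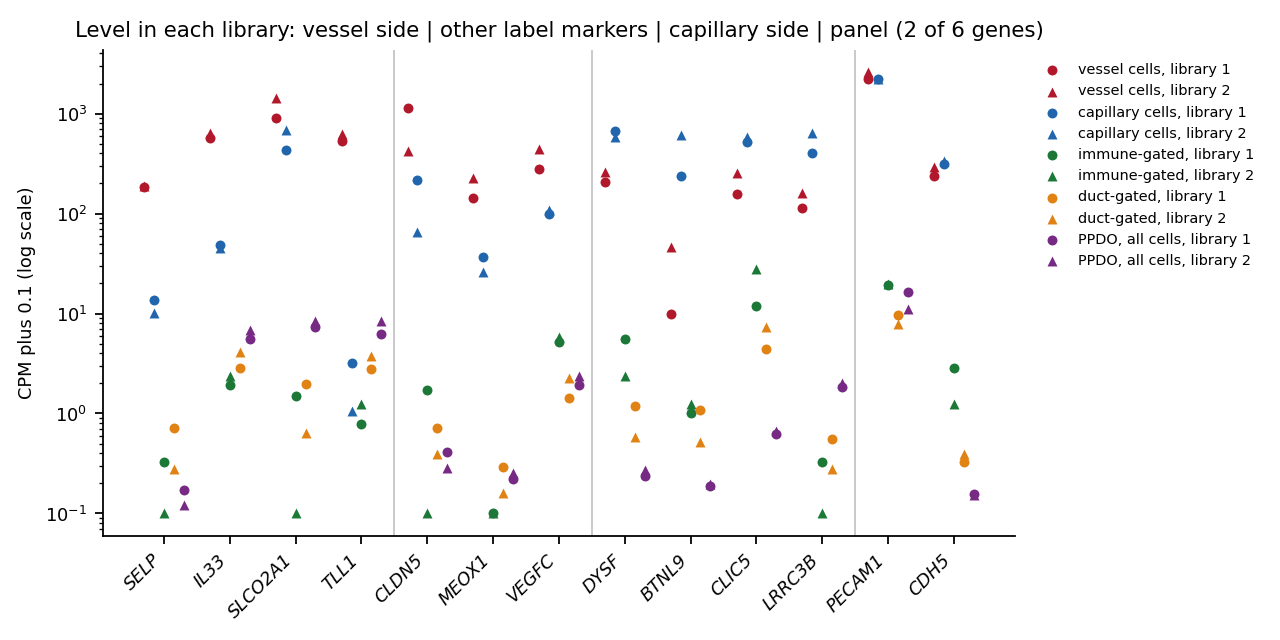
CPM (plus 0.1, log scale) of the rule's vessel side, the other label markers, the rule's capillary side and 2 panel genes, in vessel, capillary, immune-gated and duct-gated cells of primary pancreas and in PPDO, circles for library 1 and triangles for library 2. Both vessel points lie above both capillary points for SELP, IL33, SLCO2A1, TLL1, CLDN5, MEOX1 and VEGFC, and no immune-gated, duct-gated or PPDO point of these genes is over 10 CPM.

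Of the 7 genes that name the cells, CLDN5, MEOX1 and VEGFC were not used by the rule. They became names with earlier results of these same data known. Their differences and p-values are therefore a description and no independent support for the group. CLDN5, a tight junction protein of endothelium, was at 1145 and 423 CPM in vessel cells against 215 and 64.6 CPM in capillary cells, a log2 difference of 2.51 (SE 0.13, adjusted p = 9.2e-13). Its levels differed between libraries by more than those of the other 2 genes. MEOX1, a homeobox transcription factor, was at 143 and 226 CPM against 36.8 and 25.6 (log2 2.38, SE 0.20, adjusted p = 3.3e-09). VEGFC, a secreted ligand that drives lymphatic vessel growth, was at 281 and 447 CPM against 98.8 and 108 (log2 1.73, SE 0.14, adjusted p = 3.7e-09). On the pig assembly Sscrofa11.1 the RefSeq genes lie at chr4:81376804-81401240 (SELP, ENSSSCG00000006288), chr1:215899830-215941944 (IL33, ENSSSCG00000005203), chr13:75108540-75189660 (SLCO2A1, ENSSSCG00000011641) and chr8:42855883-43094215 (TLL1, ENSSSCG00000008853). CLDN5 (ENSSSCG00000041667) lies at chr14:51161490-51162382, MEOX1 (ENSSSCG00000017376) at chr12:19431397-19452430 and VEGFC (ENSSSCG00000015770) at chr15:39037764-39136234.

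The comparison of vessel with capillary cells asked which genes outside the rule separate the groups within the same animals. Counts were summed per library and group and fitted with edgeR, library kept as a block, and a gene was called at a Benjamini-Hochberg adjusted p under 0.05. Of 12353 genes tested, 1996 (16.2%) were called, 1064 (8.61%) higher and 932 (7.54%) lower in vessel cells. The rule split these same cells on 8 genes, so genes that vary together with those 8 had to differ. Each group gave 1 sum per library, so the p-values rest largely on a spread estimated over all genes together. A call thus does not show that the difference recurred in both libraries, nor that there are 2 kinds of cell. CELA2A, GP2, PKHD1 and FOSB were called higher although primary pancreas 2 alone went the other way (log2 -0.28, -0.86, -1.11 and -0.81). Without the block, 1 gene passed (WIPF3), with 1408 at an unadjusted p under 0.05, and DESeq2 with the block called 667 genes.

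Among genes with at least 50 CPM on the high side and the same direction in both libraries, the 15 with the largest difference upward were led by WIPF3, a regulator of actin assembly. WIPF3 was at 82.1 and 94.1 CPM in vessel cells against 1.08 and 0.949 in capillary cells, where it rested on 9 and 2 UMIs. For 3 of the 15 (WIPF3, TENM2 and SERTM1) the capillary level was under the low-count filter's level (3.24 CPM) in both libraries, as it was for 122 of the 1064 genes called higher, so these were tested only through the vessel cells and their fitted difference depends on few UMIs. The adhesion molecules among the 15 included TENM2 at 146 and 91.7 CPM against 2.76 and 0.475, NTM at 234 and 128 against 4.07 and 6.17, and CNTN3 at 91.4 and 78.8 against 2.16 and 12.8. CNTN3 also reached 141 and 907 CPM in the other barcodes of the 2 libraries, and TENM2 102 CPM in those of primary pancreas 1. ADGRG6, an adhesion receptor, was at 274 and 189 CPM against 8.27 and 0.949. GPM6A, a neuronal membrane glycoprotein, was at 68.1 and 120.0 CPM against 8.63 and 0.475.

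The 15 also included FGF2, a fibroblast growth factor, which was at 142 and 79.96 CPM in vessel cells against 10.55 and 2.37 CPM. FGF13, a related protein that stays in the cell, was at 64.6 and 72.9 against 5.51 and 3.80. SULF1, a sulfatase that trims heparan sulfate, was at 269 and 88.2 against 25.2 and 2.37, and at 201 CPM in immune-gated barcodes of primary pancreas 2. The remaining genes of the 15 were SERTM1, CA10, DOCK11, MPP7, PGM5 and CHN1, with log2 differences of 3.84 to 5.21. Of these, DOCK11 (a guanine nucleotide exchange factor) was higher in immune-gated barcodes (152 and 266 CPM) than in vessel cells (137 and 123.5), CA10 reached 389 CPM in the other barcodes of primary pancreas 2, and MPP7 was at 209 and 246 CPM in duct-gated barcodes against 226 and 255 in vessel cells.

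The 15 genes with the largest difference downward included several used to recognise capillary endothelium. ESM1, a proteoglycan of angiogenic endothelium, was at 5.16 and 14.1 CPM in vessel cells against 91.0 and 88.3 in capillary cells (log2 -3.67, SE 0.27, adjusted p = 4.1e-10). GPIHBP1, which carries lipoprotein lipase across capillary endothelium, was at 9.83 and 10.6 CPM against 94.9 and 64.1. NOX4, an NADPH oxidase, was at 7.12 and 5.88 CPM against 82.8 and 93.0. RGCC, a cell cycle regulator, was at 88.4 and 259 CPM against 782 and 1363, and its 943 CPM in immune-gated barcodes of primary pancreas 1 exceeded the vessel level. CXCL12, the chemokine that binds CXCR4, was at 340 and 816 CPM against 2117 and 2620. All 15 were lower in vessel cells of both libraries, as the choice of the 15 required. The others were KIT, MPP2, SPARCL1, ADGRF4, EDNRB, WFDC1, PRICKLE2, IVNS1ABP, PLAU and NID1, with log2 differences of -2.72 to -2.16. KIT was highest in duct-gated barcodes (1074 and 1886 CPM), and 93.8% and 88.9% of MPP2 UMIs in vessel cells fell in features that extend the gene's 3' end.

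**Figure D3:**
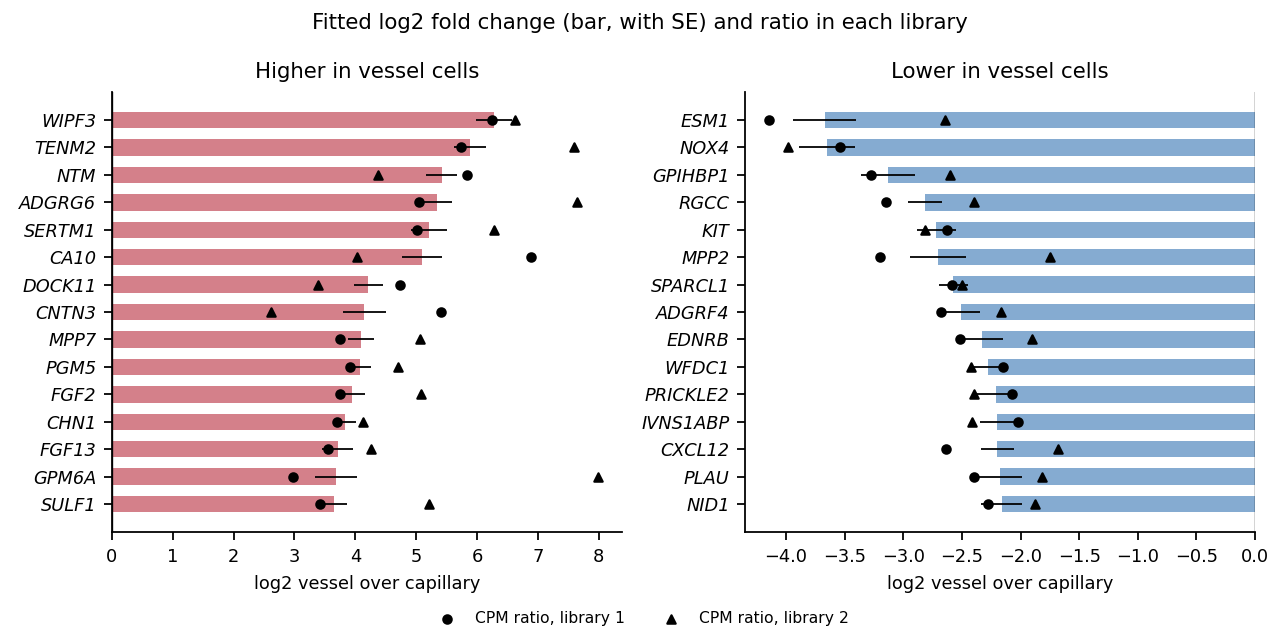
Bars give the fitted log2 difference of vessel over capillary cells with its SE for the 15 genes with the largest called difference in each direction, and points the ratio of CPM in primary pancreas 1 (circles) and 2 (triangles). Every point lies on the same side of 0 as its bar, as the choice of genes required, with WIPF3 at 6.27 and ESM1 at -3.67 leading.

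The vessel cells were not uniform. The arterial genes GJA5 and BMX and the venous factor NR2F2 lay mostly in different cells, while most cells with lymphatic genes also carried NR2F2. The subsets below were set after the values had been seen and are descriptions without a test. Cells with at least 5 UMIs of the 8 lymphatic genes came first (21 and 5 cells), then cells with at least 2 UMIs of the arterial genes GJA5 and BMX (60 and 6), then cells with at least 2 UMIs of NR2F2 (111 and 31), and 107 and 24 cells met none of these. Outside the lymphatic subset, both the GJA5 and BMX limit and the NR2F2 limit were passed by 3 of 278 cells in primary pancreas 1, where 60 passed the first and 114 the second. In primary pancreas 2, 0 of 61 cells passed both, which allows a share of up to 4.92%, and 6 and 31 passed the first and the second. Of the lymphatic subset, 16 of 21 and 3 of 5 cells also passed the NR2F2 limit and 0 the GJA5 and BMX limit, so these cells are apart from the NR2F2 cells only because they were assigned first. The median depth was 13055 and 12765 UMIs in the NR2F2 cells and 9087 and 7964 in the cells that met none, so cells of low depth had less chance to pass a limit. The cells that met none also stood between NR2F2 and capillary cells in some levels. PLVAP was at 2113 and 3985 CPM in them, against 1320 and 2217 in NR2F2 cells and 3448 and 4909 in capillary cells. TLL1 was at 330 and 195 CPM, against 800 and 1069 in NR2F2 cells and 3.12 and 0.949 in capillary cells. As a gene of the rule, its low capillary level followed from the choice of cells. Other levels were not between. SLCO2A1, also of the rule, was at 1008 and 1586 CPM in the cells that met none, against 981 and 1550 in NR2F2 cells. ICAM1 was at 487 and 199 CPM, against 466 and 193 in NR2F2 cells and 253 and 66.0 in capillary cells. The reason for these levels was not tested.

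The NR2F2 cells, 37.1% and 47.0% of vessel cells, carried 5 of the 7 genes that name the population at higher levels than the GJA5 and BMX cells. SELP was at 260 and 284 CPM in them, IL33 at 697 and 955, TLL1 at 800 and 1069, and MEOX1 at 214 and 334. SELP was detected in 84.7% and 83.9% and IL33 in 96.4% and 100% of NR2F2 cells. ADGRG6 was at 438 and 302 CPM, IL1R1, the receptor of interleukin 1, at 594 and 740, and VWF, the carrier of clotting factor VIII, at 1064 and 1187. Every one of these 7 levels was above that of the GJA5 and BMX cells of the same library. SLCO2A1, at 981 and 1550 CPM, was above it too, while CLDN5 (494 and 467 CPM) and VEGFC (206 and 440) were below it. The NR2F2 cells also held 92.0% and 16.7% of the fibroblast and 71.2% and 57.5% of the ductal UMIs of vessel cells. In primary pancreas 1, single cells held 300 of their 622 fibroblast and 357 of their 531 ductal UMIs.

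In the GJA5 and BMX cells, 20.1% and 9.09% of vessel cells, SELP was at 54.3 and 11.13 CPM and TLL1 at 31.7 and 66.8, and MEOX1 had no UMI. These cells entered the rule mainly through SLCO2A1 (678 and 913 CPM) and IL33 (351 and 390 CPM), which were detected in 96.7% and 100% of them (SLCO2A1) and in 57 of 60 and 6 of 6 (IL33). CLDN5 was at 3296 and 1347 CPM, and these cells held 62.5% and 33.6% of all CLDN5 UMIs of vessel cells. VEGFC was at 453 and 1024 CPM. ELN (elastin) was at 697 and 546 CPM and MGP (matrix Gla protein, an inhibitor of calcification) at 3711 and 2138 CPM, against 58.0 and 49.9 CPM and 72.4 and 65.8 CPM in the NR2F2 cells, while FBN1 (fibrillin) was at 398 and 379 CPM against 566 and 463. Markers of other tissues lay in the same cells. The 10 pericyte and smooth muscle genes summed to 1219 and 55.7 CPM there, with 81.3% and 15.6% of their UMIs in vessel cells, led in primary pancreas 1 by TAGLN (788 and 55.7 CPM), MYH11 (226 and 0) and ACTA2 (140 and 0), which encode contractile proteins or their partners. The acinar genes summed to 5140 and 122 CPM there, but a single cell of primary pancreas 1 held 4444 of the 4541 acinar UMIs, and without it the level was 116 CPM. The endocrine genes without INS summed to 22.6 and 668 CPM there. A single cell of primary pancreas 2 held 45 of the 60 endocrine UMIs, and without it the level was 198 CPM. In the 26 of 60 and 4 of 6 of these cells with under 5 UMIs in each of the pericyte and smooth muscle, fibroblast, Schwann cell, acinar, ductal and endocrine lists (the immune list was not used in this choice), ELN was at 439 and 702 CPM, MGP at 3043 and 2947 and CLDN5 at 2649 and 1158, with TAGLN at 72.6 and 87.7 and ACTA2 at 0. SEMA3G, a semaphorin of arterial endothelium, was at 711 and 735 CPM and HEY2, a NOTCH target, at 89.4 and 66.8. PLVAP, the protein of fenestral diaphragms, was at 255 and 267 CPM, against 1320 and 2217 in the NR2F2 cells. SELP was detected in 38.3% and 16.7% of these cells, so the name SELP and IL33 fits them mainly through IL33.

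The lymphatic subset was 7.02% and 7.58% of vessel cells. Its 21 cells of primary pancreas 1 held 5 to 408 lymphatic UMIs each, with a median of 16, so the levels there were uneven between cells. It held 13 of the 26 and 1 of the 5 vessel cells with a UMI of PROX1, itself among the 8 genes that define the subset. In its 21 cells of primary pancreas 1, PROX1, the transcription factor of lymphatic identity, was at 313 CPM, CCL21, a chemokine of lymphatic vessels, at 2210, MMRN1 at 365 and RELN at 300. In its 5 cells of primary pancreas 2 the same genes were at 86.3, 259, 38.3 and 86.3 CPM, and only 1 of the 5 had a PROX1 UMI, against 13 of 21 in primary pancreas 1. That cell, with 47 lymphatic UMIs, was marked by Scrublet as a likely doublet, and the other 4 held 5 to 6 lymphatic UMIs, at the limit. SELP was at 139 and 105 CPM, IL33 at 627 and 201 and TLL1 at 937 and 86.3. The 5 cells of primary pancreas 2 also held 4419 CPM of PLVAP and a median of 20 UMIs on the capillary side, against 908 CPM and 2 UMIs in primary pancreas 1, so the subset was not the same in both libraries. IL33 was above 200 CPM in every subset of both libraries, against 48.5 and 45.1 CPM in capillary cells. As a gene of the rule, it was favoured in vessel cells by the choice of cells. Its lowest level, 201 CPM, rested on 21 UMIs in the 5 lymphatic cells of primary pancreas 2.

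A higher level over all vessel cells did not always hold in the NR2F2 cells. Of the genes named here, 71 were called higher over the whole population, and 11 of these were below the capillary level in the NR2F2 cells of both libraries (GJA5, BMX, SEMA3G, HEY2, JAG2, TFPI, COL8A1, CCL21, RELN, TBX1 and GP2). Cells over the GJA5 and BMX limit or the lymphatic limit were taken out before the NR2F2 cells were set. Capillary cells were not cleared in this way. The low levels of GJA5, BMX, CCL21, RELN and TBX1 were thus in part by construction. JAG2 was only just below, at 29.5 against 30.9 CPM in primary pancreas 2. Of the 64 named genes called lower, 0 were above the capillary level in the NR2F2 cells of both libraries. The same shares over all called genes were not counted.

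**Figure D4:**
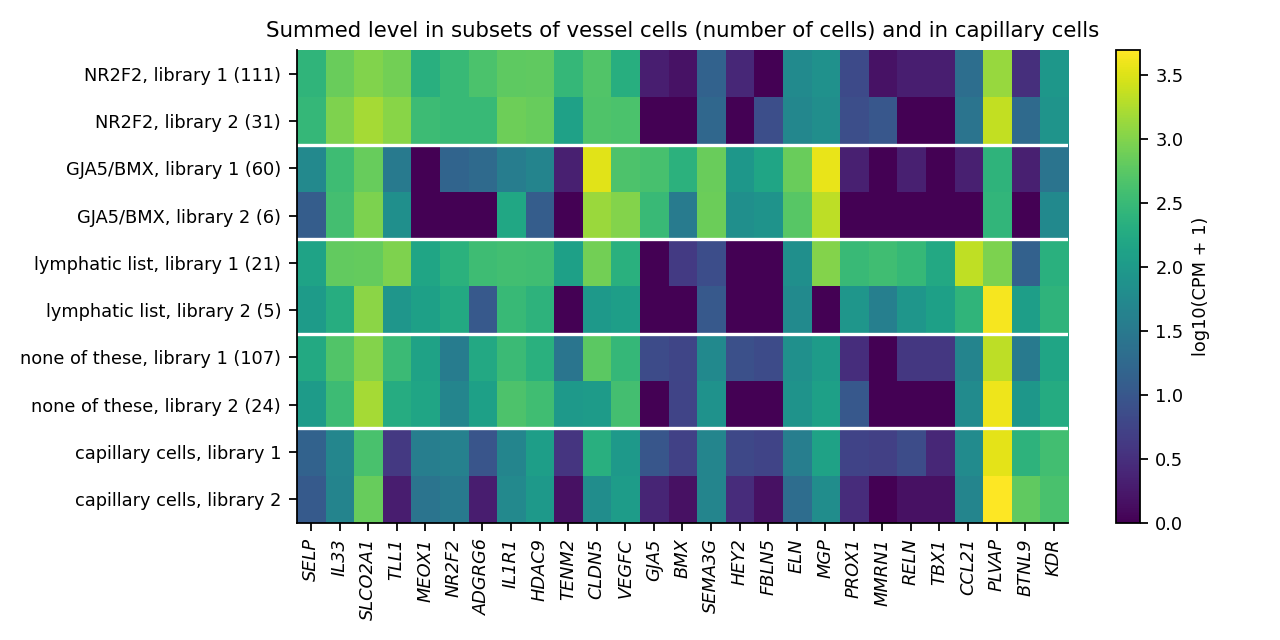
Colour gives log10 of CPM plus 1 for 27 genes (columns) in 4 subsets of vessel cells and in capillary cells (rows, 1 per library, cells in parentheses). NR2F2 cells show SELP, TLL1 and ADGRG6, and GJA5 and BMX cells show CLDN5, SEMA3G, ELN and MGP with little SELP. PROX1 and MMRN1 are among the genes that define the lymphatic subset, so their higher level there is by construction, and elsewhere they are under 10 CPM. Of vessel cells with a PROX1 UMI, 13 of 26 in primary pancreas 1 and 1 of 5 in primary pancreas 2 lie in that subset.

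Over the whole population, each list of genes here and below was counted against the background of 8.61% of all genes higher and 7.54% lower, with a median log2 difference over all genes of -0.00057. No list was tested against other genes. DESeq2 called fewer genes in all (350 higher and 317 lower of 12353), and its counts are given beside those of edgeR. They are to be read against these totals and not against the edgeR shares. Of 10 venous genes tested, 5 were higher (ACKR1, ADGRG6, NR2F2, HDAC9 and VCAM1) and 2 lower (NRP2 and APLNR), with a median of 1.03 (5 and 0 by DESeq2). NR2F2 was at 168 and 192 CPM against 40.7 and 30.9 (log2 2.24, SE 0.17, adjusted p = 6.1e-10), with 222 CPM in the other barcodes of primary pancreas 1. ACKR1, the chemokine-binding receptor of venules, was rare, at 10.3 and 19.99 CPM (42 and 17 UMIs) against 0.120 and 0.475 (1 UMI in each library), so that it passed the low-count filter only through the vessel cells, and 73.8% and 70.6% of its UMIs in vessel cells lay in 3' extensions. VCAM1, a leukocyte adhesion molecule, was at 75.2 and 49.4 CPM against 25.05 and 12.3, and at 154 CPM in immune-gated barcodes of primary pancreas 1.

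Of 13 arterial genes, 5 were higher (BMX, GJA5, FBLN5, HEY2 and SEMA3G) and 5 lower (UNC5B, CXCR4, DLL4, LTBP4 and EFNB2), with a median of -0.12 (4 and 2 by DESeq2). GJA5 was at 90.9 and 32.9 CPM against 8.63 and 1.42 (log2 3.51, SE 0.26, adjusted p = 4.2e-10). DLL4, a NOTCH ligand, went the other way, at 54.8 and 45.9 CPM against 125 and 125 (log2 -1.30, SE 0.16, adjusted p = 2.2e-06). Within the GJA5 and BMX cells DLL4 was at 119 and 278 CPM, against 28.8 and 15.9 in the NR2F2 cells. The arterial list was thus split, with GJA5, BMX, SEMA3G and HEY2 in a minority of vessel cells and DLL4, UNC5B and CXCR4 higher in capillary cells.

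Of 8 lymphatic genes, 6 were higher (TBX1, MMRN1, PROX1, RELN, PDPN and CCL21), LYVE1 was not called and FLT4, the receptor of VEGFC, was lower, with a median of 1.99 (4 higher and 0 lower by DESeq2). The list summed to 308 and 128 CPM in vessel cells against 105 and 75.5 in capillary cells. A single vessel cell held 408 of 1255 such UMIs in primary pancreas 1. In primary pancreas 2 the likely doublet named above held 47 of 109. Without the cell with most of these UMIs in each group and library, the list was at 209 and 74.5 CPM against 89.0 and 74.6. TBX1, on 13 and 1 UMIs in capillary cells, passed the low-count filter only through the vessel cells. PROX1 was at 27.3 and 16.5 CPM against 4.55 and 1.90, and at 293 and 329 CPM in duct-gated barcodes. FLT4 was at 13.8 and 5.88 CPM against 22.5 and 24.7. After the 21 and 5 lymphatic cells and the cells with 5 or more UMIs of other tissue lists were left out of both groups, FLT4 and CCL21 alone could be tested and neither was called higher, as that choice of cells removes these UMIs by construction.

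Of 11 capillary genes, 10 were lower in vessel cells and AQP1 was not called, with a median of -1.19 (9 lower by DESeq2). Besides ESM1, GPIHBP1 and RGCC, these included SPARCL1 at 112 and 147 CPM against 673 and 831, and CA4, a carbonic anhydrase of capillary endothelium, at 15.5 and 40.0 against 82.6 and 98.7. The fatty acid carriers FABP4 (949 and 1141 CPM against 2061 and 2057) and FABP5 (2281 and 2398 against 4410 and 3975) were lower but abundant, and CD36, a fatty acid transporter, was at 309 and 487 against 587 and 609. INSR, the insulin receptor, was at 117 and 82.3 CPM against 205 and 271.

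Of 22 general endothelial genes tested, 3 were higher and 7 lower, against 8.61% and 7.54% over all genes, with a median of -0.05 (0 and 3 by DESeq2). TIE1 was at 108 and 128 CPM in vessel cells against 107 and 129, and ERG at 463 and 407 against 462 and 344, and neither was called. PLVAP was lower (1252 and 2729 CPM against 3448 and 4909, log2 -1.18, SE 0.10, adjusted p = 5.8e-09), as was ROBO4 (89.7 and 107 against 240 and 291). NOS3, the endothelial nitric oxide synthase, was higher at 152 and 111 CPM against 79.2 and 75.5.

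**Figure D5:**
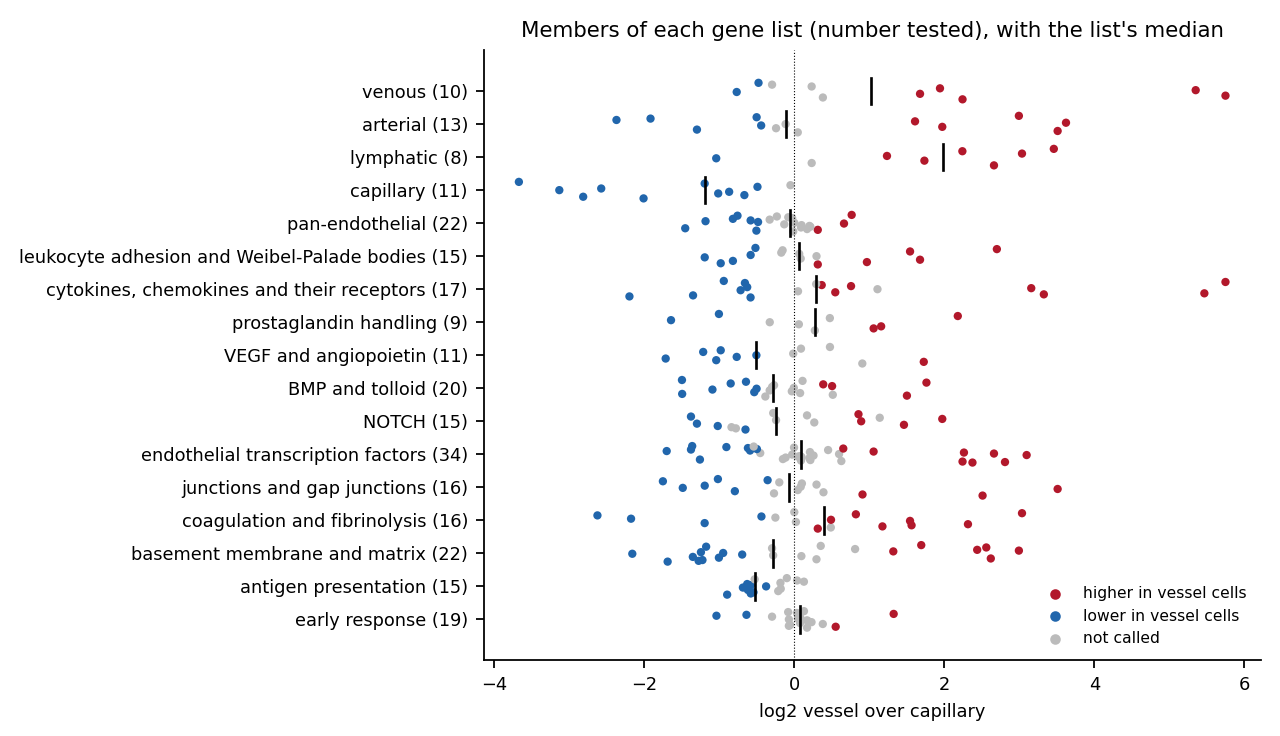
Each point is the fitted log2 difference of vessel over capillary cells for 1 gene of a list, red where called higher, blue where called lower and grey where not called, with the list's median as a black bar. The capillary list lies to the left (median -1.19), the lymphatic and venous lists to the right (1.99 and 1.03), and the other lists straddle 0. Without the top cell of each group, the lymphatic list of primary pancreas 2 summed to 74.5 CPM in vessel and 74.6 in capillary cells.

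Of 15 genes of leukocyte adhesion and Weibel-Palade bodies, 5 were higher and 5 lower, with a median of 0.07 (4 and 1 by DESeq2). EDN1, the vasoconstrictor endothelin 1, was at 119 and 75.3 CPM in vessel cells against 17.5 and 12.3 (log2 2.70, SE 0.19, adjusted p = 2.4e-10). RAB27A, a GTPase of Weibel-Palade body release, was at 65.3 and 75.3 against 22.4 and 24.7, with 232 and 159 CPM in duct-gated barcodes. ICAM1, an integrin ligand, was at 429 and 169 CPM against 253 and 66.0. VWF, the main cargo of the same bodies, was called higher by a small margin, at 787 and 956 CPM against 599 and 787 (log2 0.31, adjusted p = 0.04), and was not called once the cell limits of the study were added. JAM3 (86.2 and 132 CPM against 195 and 294) and ANGPT2 (21.9 and 30.6 against 52.0 and 38.9) led the lower side.

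Of 17 cytokine and chemokine genes and their receptors, 7 were higher and 7 lower, with a median of 0.29 (5 and 1 by DESeq2). IL6, an inflammatory cytokine, was at 67.3 and 17.6 CPM in vessel cells against 1.44 and 0.475, which rested on 274 and 15 UMIs against 12 and 1. It was called higher, but the capillary level was under that of the low-count filter. CCL26, an eosinophil-attracting chemokine, was at 87.7 and 21.2 CPM against 9.59 and 0.475, nearly all of it outside the GJA5 and BMX cells, where it was at 3.40 and 0 CPM. IL1R1 was at 392 and 551 CPM against 47.1 and 54.1 (log2 3.16, SE 0.14, adjusted p = 2.2e-13), with 702 CPM in the other barcodes of primary pancreas 2. IL1RL1, the receptor of IL33, had no UMI in vessel cells of either library, which allows up to 0.737 and 3.53 CPM, so the receptor was not detectable at this depth in the cells that held IL33. CCL2 was lower at 7.62 and 8.23 CPM against 20.6 and 17.1, and reached 199.6 CPM in immune-gated barcodes of primary pancreas 1.

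Of 9 genes of prostaglandin handling tested, 3 were higher and 2 lower, against 8.61% and 7.54% over all genes, with a median of 0.27 (1 and 0 by DESeq2). PTGIS, which makes prostacyclin, was at 260 and 195 CPM in vessel cells against 103 and 117 (log2 1.06, SE 0.15, adjusted p = 1.5e-05). PTGES, which makes prostaglandin E, was at 41.0 and 30.6 against 19.7 and 10.9, under the 236 and 250 CPM of PPDO. PLA2G4A, a phospholipase that frees arachidonic acid, was at 32.4 and 12.9 against 5.75 and 5.22, and at 158 and 108 CPM in immune-gated barcodes. HPGD, which inactivates prostaglandins after uptake, was low at 1.97 and 12.9 CPM against 5.51 and 5.70 and was not called. PTGER2 and TBXAS1 were lower.

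Of 11 genes of the VEGF and angiopoietin list, VEGFC was the only one called higher and 6 were lower, with a median of -0.50 (1 and 2 by DESeq2). NRP1, a co-receptor of VEGF, was at 254 and 262 CPM in vessel cells against 908 and 746 (log2 -1.71, SE 0.12, adjusted p = 2e-10). TEK, the angiopoietin receptor, was at 583 and 818 against 830 and 1115, and ANGPT1 at 24.1 and 8.23 against 52.3 and 24.2. NRP2, FLT4 and ANGPT2 were the other 3.

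TLL1 acts in the BMP pathway by cleaving chordin, and that list was mixed, with 4 of 20 higher, 7 lower and a median of -0.28 (0 and 3 by DESeq2). BMPER, a secreted BMP modulator, was at 31.7 and 25.9 CPM in vessel cells against 7.43 and 11.4 (log2 1.76, SE 0.29, adjusted p = 8.2e-05). BMP2 was at 13.3 and 4.70 against 3.95 and 2.85. BMP6 was lower at 62.4 and 34.1 against 137 and 155, as were its target ID3 (306 and 463 against 539 and 822) and the receptor TGFBR2 (188 and 220 against 375 and 487). CHRD, the chordin gene, was at 0.983 and 1.18 CPM in vessel cells and was too low to be tested.

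Of 15 NOTCH genes, 4 were higher (HEY2, DLL1, JAG2 and LFNG) and 4 lower (HES1, DLL4, NOTCH4 and NOTCH1), with a median of -0.24 (0 and 3 by DESeq2). HES1, a target of the pathway, was at 204 and 92.9 CPM in vessel cells against 457 and 291 (log2 -1.38, SE 0.14, adjusted p = 1.1e-07), while the target HEY2 was at 21.9 and 7.06 against 5.39 and 1.90. NOTCH4, the endothelial receptor, was at 66.6 and 133 against 147 and 233.

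Among 34 endothelial transcription factors, 8 were higher and 8 lower, with a median of 0.09 (7 and 6 by DESeq2). GATA6 was at 47.9 and 24.7 CPM in vessel cells against 6.23 and 1.42 (log2 3.10, SE 0.30, adjusted p = 4.6e-08), below its 220.1 and 237 CPM in duct-gated barcodes, with 61.5% and 47.6% of its vessel UMIs in the GJA5 and BMX cells (136 and 111 CPM). MEOX2, the paralogue of MEOX1, was at 53.8 and 19.99 CPM against 8.99 and 0.475, and at 84.2 CPM in the other barcodes of primary pancreas 1. FOXC1 was at 24.6 and 22.3 against 5.63 and 3.32, with 98.0% and 100% of its vessel UMIs in 3' extensions. On the lower side were TCF15 (10.6 and 18.8 CPM against 30.6 and 71.7), HLX (38.6 and 60.0 against 114 and 122) and ETS1 (330 and 455 against 902 and 903). SOX17, an arterial factor, was at 95.1 and 127 CPM against 119 and 107 and was not called.

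Junction genes were led upward by CLDN5 and GJA5, with 3 of 16 higher, 6 lower and a median of -0.08 (2 and 3 by DESeq2). OCLN, a second tight junction protein, was at 34.1 and 40.0 CPM in vessel cells against 16.7 and 23.7, below the 146 and 125 CPM of duct-gated barcodes. PCDH12 (17.9 and 23.5 CPM against 63.5 and 67.9) and GJC1 (31.7 and 44.7 against 107 and 84.5) led the lower side.

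Of 16 coagulation genes, 8 were higher and 4 lower, against 8.61% and 7.54% over all genes, with a median of 0.40 (5 and 2 by DESeq2). TFPI, the inhibitor of the tissue factor pathway, was at 62.6 and 23.5 CPM in vessel cells against 12.3 and 4.75 (log2 2.32, SE 0.25, adjusted p = 1.8e-07). It was at 220 and 89.1 CPM in the GJA5 and BMX cells and 152 and 105 in the lymphatic subset, but at 0 and 2.27 CPM in the NR2F2 cells, below the capillary level. THBD and PROCR, which together activate protein C, were at 148 and 172 CPM against 65.3 and 73.1 and at 19.9 and 19.99 against 7.07 and 5.70. Of the plasminogen activators, PLAT was higher (296 and 182 CPM against 218 and 119) and PLAU lower (16.2 and 45.9 against 85.3 and 161).

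Of 22 matrix genes, 6 were higher (FBLN5, COL8A1, MGP, ELN, TNXB and FBN1) and 10 lower (NID1, COL4A1, LAMB1, COL4A2, SPARC, COL15A1, EMILIN1, LAMA4, NID2 and HSPG2), with a median of -0.29 (5 and 9 by DESeq2). The GJA5 and BMX cells, which in primary pancreas 1 also carried smooth muscle markers, held 85.5% and 77.4% of the vessel UMIs of MGP, 75.5% and 52.1% of those of ELN and 95.6% and 70.0% of those of FBLN5 (an elastic fibre protein), but 18.2% and 10.1% of those of FBN1. FBN1 (fibrillin) was at 474 and 396 CPM in vessel cells against 181 and 162 (log2 1.32, SE 0.13, adjusted p = 3.1e-08), and ELN at 200.5 and 111 against 36.6 and 19.9. MGP was at 942 and 292 CPM against 133 and 62.7, and at 3443 and 392 CPM in the other barcodes. The lower genes include the collagen IV chains and nidogens of basement membrane, with COL4A1 at 107 and 205 CPM against 410 and 516 and NID1 at 29.5 and 41.2 against 143 and 151.

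Of 15 antigen presentation genes, 8 were lower and 7 not called, with a median of -0.53 (3 lower by DESeq2). SLA-DRA, a class II molecule, was at 969 and 902 CPM in vessel cells against 1790 and 1626 (log2 -0.89, SE 0.09, adjusted p = 1.3e-07), and its regulator CIITA at 71.2 and 94.1 against 102 and 172. In immune-gated barcodes SLA-DRA was at 2584 and 1892 CPM and in duct-gated barcodes at 20.8 and 1.72, so both endothelial groups stood far above the duct level. CD74, the class II invariant chain, was at 4559 and 4817 CPM against 4978 and 5464 and was not called.

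Most early response genes differed between the 2 libraries, and capillary cells of the same library shared that difference. FOS was at 2291 CPM in vessel cells of primary pancreas 1 and 190.5 in those of primary pancreas 2, a ratio of 12.0, and at 1691 and 211 in capillary cells, a ratio of 8.004. ATF3 was at 496 and 14.1 CPM in vessel cells and 424 and 10.9 in capillary cells. Of 20 genes of the list with UMIs in each group, 13 were over 2 times higher in primary pancreas 1 in both vessel and capillary cells, with a median vessel ratio of 5.28 over the list and the highest for FOSB (131). FOSB was at only 3.53 CPM in vessel cells of primary pancreas 2, a level that 0 UMIs would still allow, so its ratio is imprecise. IER3 (3.53 CPM) and EGR2 (1.18 CPM) were as low or lower there. The share of all genes with a ratio over 2 was not counted, so the count of 13 does not set the list apart. Outside the list, CLDN5 (2.70 and 3.34 in vessel and capillary cells) and ICAM1 (2.53 and 3.84) had a ratio over 2 too, while VEGFC (0.629 and 0.912) did not. The vessel ratio was 1.30 for KLF6, 1.13 for DUSP1, 0.824 for NR4A1 and 0.492 for KLF2, and the acinar genes CELA2A (45.5) and CPA1 (23.6) had higher ratios than FOS. The transcription factor SOX18 went the other way, at 122 and 669 CPM in vessel cells and 122 and 566 in capillary cells. Between vessel and capillary cells, 2 of 19 early response genes were higher and 2 lower, with a median of 0.08, close to the shares over all genes (8.61% and 7.54%), with 0 and 2 by DESeq2. NR4A1 (87.2 and 106 CPM against 195 and 185) and DUSP1 (715 and 633 against 921 and 1163) were the lower ones, and MYC was higher at 50.6 and 28.2 against 21.0 and 9.49.

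Markers of other pancreatic cells were also counted in the vessel cells. The 8 acinar genes found summed to 1416 and 83.5 CPM in vessel cells against 421 and 69.3 in capillary cells, with 4444 acinar UMIs in the single GJA5 and BMX cell named above. Of 6 tested, 5 were called higher (PNLIP, CPA1, CELA2A, CLPS and GP2; 3 by DESeq2), but CELA2A and GP2 were lower in vessel cells of primary pancreas 2, and none of the 5 was called once cells with 5 or more UMIs of other tissue lists were left out, a choice that removes these UMIs. The 8 ductal genes, without SLC4A4, summed to 183 and 133 CPM against 67.8 and 92.6, with 4 of 6 called higher (0 by DESeq2, 2 with the study's cell limits and 1 without cells with 5 or more UMIs of other tissue lists) and PKHD1 highest by difference (44.2 and 3.53 CPM against 7.67 and 7.60). A single NR2F2 cell of primary pancreas 1, with 8 panel UMIs and 1 UMI on the vessel side, held 357 of the 746 ductal UMIs there. Fibroblast genes were at 166 and 14.1 CPM against 80.5 and 4.75, with 3 of 5 called higher (0 by DESeq2), and 3 cells of primary pancreas 1, all NR2F2 cells, held 588 of the 676 fibroblast UMIs there. Those 3 cells had 11, 14 and 8 panel UMIs and no UMI of SELP, SLCO2A1, TLL1 or CLDN5, so they entered the rule through IL33. Scrublet marked none of them, nor the cells with 4444 acinar and 357 ductal UMIs. Without the 3 cells rich in fibroblast UMIs the fibroblast level of primary pancreas 1 was 21.9 CPM, and with all cells with 5 or more UMIs of other tissue lists left out the fibroblast genes were too low to be tested. Pericyte and smooth muscle genes were at 325 and 37.6 against 356 and 43.2, with 3 of 6 lower, and 0 of 6 lower by edgeR with the study's cell limits added (1 of 6 by DESeq2 with all cells). A single capillary cell of primary pancreas 1 held 1071 of the 2967 such UMIs there, and without the cell with most of them in each group and library the levels were 232 and 17.8 CPM against 228 and 12.4. At least 5 such UMIs were held by 11.7% and 1.52% of vessel cells and 3.48% and 1.53% of capillary cells. The 10 immune genes summed to 1476 and 1472 CPM against 1138 and 1191, most of it CD79A (1379 and 1306 against 1007 and 998), which was at 990 and 1035 CPM in immune-gated barcodes. Of 6 tested, CD79A was higher and PTPRC lower (0 called by DESeq2 and 4 with an unadjusted p under 0.05 by edgeR). PTPRC, the leukocyte marker CD45, was at 16.7 and 35.3 CPM against 38.2 and 62.2, and at 1779 and 2170 in immune-gated barcodes, which were chosen by it. Of 8 cell division, 5 endocrine and 2 Schwann cell genes, edgeR called none (3, 1 and 1 had an unadjusted p under 0.05), and neither DESeq2 nor limma-voom called any. With the cells that hold these UMIs left out, 1527 genes were called and the mean vessel share was 23.4%. The part of such cells or of free RNA in the single genes above was not tested beyond that.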

How the data were processed

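Cells of 4 pig libraries were measured by 10x Chromium 3' v3.1 sequencing. The authors aligned reads with Cell Ranger 7.1.0 (submitters' processing notes, which also name the pig build Sscrofa11.1) to an in-house annotation with extended 3' ends and deposited raw UMI counts per feature and barcode. The deposited barcode and feature tables hold names, a unit recorded as other. SoupX correction came later in the study and is not in these counts. Iso and ext features (56060, of which 25770 are extensions) were summed to 30282 genes, and the 8 transgene features were kept apart. Symbols came from the features and a gene name table, and coordinates from RefSeq by symbol. Of 376 list genes, 350 were found.

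The cells, lists and the comparison were chosen with earlier results of these data known. Immune-gated barcodes were eligible ones with at most 1 panel UMI and at least 2 UMIs of PTPRC, duct-gated ones had at least 0.3% SLC4A4 UMIs, under 5% INS and at most 1 panel UMI, and the other barcodes were eligible ones with at most 1 panel UMI that were not immune-gated. Scrublet ran in Scanpy 1.11.5. Counts were summed per library and group and tested with edgeR 4.0.16 (TMM, filterByExpr, glmQLFit and glmQLFTest, library and group as terms, Benjamini-Hochberg at 0.05). The 16 genes of the rule stayed in the totals and were not tested. Library is the animal, so the block pairs the sums, and deviations of sums of the same library correlated at 0.596. Each SE was derived from the quasi-likelihood F value of the fold change (its size over the root of F). On simulated sums (12543 genes) the vessel against capillary fit recovered 92.9% of genes changed 4-fold and 34% of those changed 2-fold, with 1 false call. Alternatives used DESeq2 1.42.0 and limma 3.58.1. Named genes were the label markers, list members by count with up to 5 examples in each direction by size of difference and 1 or 2 defining members, and the 15 called genes with the largest difference in each direction at 50 CPM or more. For these 15, both libraries had to lie on the same side. Subset values and library differences were chosen after their values were seen, as were PLVAP, BTNL9, KDR and SOX18 in their sentences. A member of the coagulation list is not reported here by name.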

Additional observations from a re-analysis of the deposited data

How the results depend on the processing

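The number of called genes (1996, of which 1064 were higher and 932 lower in vessel cells) moved with the test and the depth. Without the library block 1 gene was called by edgeR (1 higher and 0 lower, with 1408 genes at an unadjusted p under 0.05). DESeq2 called 667 (350 higher, 317 lower), and cells thinned to 2000 UMIs gave 690 (368 and 322) of 7050 tested. Under the other alternatives the number was 1434 to 2203. Without 1 library no spread is left, so no genes could be called. Between 1414 and 1948 of the genes called with other cells, features or limma-voom were shared with the 1996, apart from the thinned and DESeq2 fits (676 and 667). Cells without UMIs of other lists and limma-voom were added after the data had been seen.

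Of the genes named in the text, 135 were called, and 88 of these were called under each alternative that tested them other than the fit without the block and the fit without a low-count filter. These reversed sign, all without passing the threshold there. With a lead of at least 4 UMIs, CPA1 was at log2 -0.092, CELA2A -0.87, CLPS -0.27, GP2 -0.33 and PKHD1 -0.71. Without cells with UMIs of other lists, CCL21 was at -0.37, CPA1 -0.035, CELA2A -0.35, CLPS -0.068, GP2 -0.23 and PKHD1 -0.75. ACTA2, lower at log2 -1.03, was at 0.42 by DESeq2. PKHD1 was at -0.89 with a panel minimum of 16 UMIs. Without primary pancreas 1 the log2 ratio was -0.28 for CELA2A, -0.86 for GP2, -1.11 for PKHD1 and -0.81 for FOSB, and without primary pancreas 2 it was 1.62, 1.42, 2.53 and 0.65. The cause was not tested, other than that leaving out such cells removes these UMIs.

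The mean vessel share of 26.4% became 22.2% with a lead of at least 4 UMIs and 23.4% without cells with UMIs of other lists. It was 24.9% to 27.9% with 1 library left out. The median share of vessel cells with a UMI over the 7 label markers was 36.2% after thinning and 67.8% without it, so depth sets such shares. With 66 vessel cells, primary pancreas 2 limits the precision of each comparison.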

Other observations

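Some values in vessel cells belong to no comparison above. CD79A, a B cell gene of the immune list, was at 1379 and 1306 CPM in vessel cells and 1007 and 998 in capillary cells, but also at 551 and 573 in duct-gated barcodes and 1794 and 2006 in PPDO, so in these counts it marked no cell type. PTGS2, the inducible cyclooxygenase, was at 42.0 CPM in vessel cells of primary pancreas 1 and 1.18 in those of primary pancreas 2, against 3.12 and 0.475 in capillary cells, and did not pass the filter on low counts. INS UMIs, which limited the choice of barcodes, were 0.0117% and 0.812% of vessel cell UMIs, beside 0.0174% and 1.07% in immune-gated barcodes. The eGFP transgene had 0 UMIs in vessel cells of both libraries. These genes were picked after their values had been seen.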
